A study of Homo sapiens with 12 samples.

Results

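The comparison of ciclopirox at 8 h with vehicle control covers 5 of the 12 arrays of this series, 3 titled as ciclopirox at 8 h and 2 titled as control. WM35 is an established human melanoma cell line. Cells were given ciclopirox or crizotinib, an inhibitor of receptor tyrosine kinases such as MET and ALK, or the vehicle DMSO, and the control titles name no time. Each drug was used at its 75% inhibitory concentration, which the labels say had been measured at 72 h. All groups share the cell line, medium with 5% serum and 300 ng of total RNA on Illumina expression BeadChips. The other groups used here are 3 arrays of crizotinib at 8 h and 2 of ciclopirox at 24 h, beside 2 of crizotinib at 24 h. Whether the arrays within a group stem from independent cultures is not stated in the labels, and every p-value therefore reflects array-to-array spread alone, possibly technical.

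Ciclopirox is used against fungal infections and chelates iron. Iron is the cofactor of the prolyl hydroxylases that mark hypoxia-inducible factor (HIF) for destruction, and with less available iron HIF persists and switches on genes of glycolysis, angiogenesis and mitochondrial turnover. Ribonucleotide reductase, which makes deoxynucleotides for DNA replication, and deoxyhypusine hydroxylase, which modifies the translation factor EIF5A, also need iron. Stalled replication and DNA damage act through p53, whose targets stop the cell cycle, and stress on amino acid supply or protein folding acts through the transcription factor ATF4.

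Before any result, 2 deposited records disagree on which array holds which sample. Each sample's description names a chip position, given here as a letter from A to L. The deposited value table lists processed values by sample, and each of its columns can be matched to the signal columns by its values. Over 12599 probes detected on all arrays, every column of the value table matched 1 position with a correlation of at least 0.94, and the highest correlation with any other position was 0.672. The 2 control columns matched the positions their descriptions name, A and B. The other 10 columns matched another position than the one described. By the descriptions the arrays of ciclopirox at 8 h are C, D and E. By the value table they are J, K and L, which the descriptions give to crizotinib, while C and D are crizotinib at 24 h and E is ciclopirox at 24 h.

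**Figure D1:**
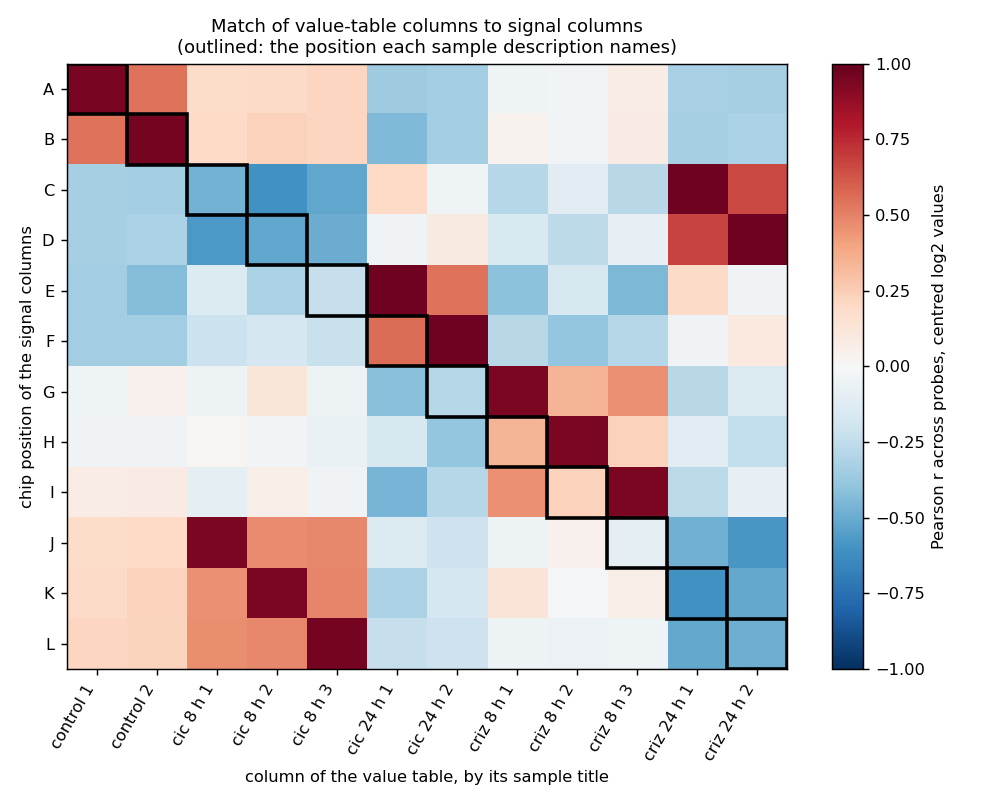
Pearson correlation across probes of each value-table column (horizontal axis, by sample title, cic for ciclopirox and criz for crizotinib) with the signals at each chip position (vertical axis, A to L), with the 12-array mean of each probe subtracted. Outlines mark the position each description names: the dark red cells of high correlation lie inside an outline for the 2 controls and outside it for the other 10 samples.

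Arrays of one group resembled each other more under the value table. Over 18285 probes, the mean correlation of centred values within groups was 0.15 by the descriptions (9 pairs, lowest -0.264) and 0.375 by the value table (9 pairs, lowest 0.168). By the descriptions 5 of 12 arrays were closest to an array of their own group, whereas all 12 were by the value table. These correlations describe the arrays and test nothing. The comparisons and gene lists below are therefore given under both records, the descriptions, which the design used, and the value table, an alternative chosen after the data were seen. The same 2 control arrays serve both. Under either record each group fills neighbouring positions of 1 chip, so group and position cannot be told apart.

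The arrays were alike in depth. Mean signal ranged from 346 to 398, and between 15561 and 17106 of 47230 probes were detected at a detection p under 0.01. Of 20 melanocyte lineage markers named on the array, 9 passed the filter on dim probes under either record, among them SOX10 and MITF but not the pigment genes TYR, TYRP1, PMEL and MLANA. Markers of other cells were few, with 1 of 5 keratinocyte, 0 of 6 endothelial, 1 of 7 leukocyte and at most 3 of 8 fibroblast genes passing.

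Promoter windows were searched for the called members of the HIF and ATF4 lists with the largest rises, up to 3 per list and record. The 4 shown are those that held the letters ACGTG, so the display was chosen by that result. BHLHE40 and ALDOC were called higher under both records and BNIP3 and DDIT4 by the value table. They run from 250 bases before to 50 after the start of the gene, from RefSeq on GRCh38.p14, 5′ to 3′ on the gene's own strand. Capitals mark the core letters of the HIF response element, ACGTG, found on either strand, and matches on both strands that overlap form 1 run. BHLHE40 lies at chr3:4979187-4979486 on the plus strand, ALDOC at chr17:28576846-28577145 on the minus strand, BNIP3 at chr10:131981874-131982173 on the minus strand and DDIT4 at chr10:72273674-72273973 on the plus strand.
BHLHE40: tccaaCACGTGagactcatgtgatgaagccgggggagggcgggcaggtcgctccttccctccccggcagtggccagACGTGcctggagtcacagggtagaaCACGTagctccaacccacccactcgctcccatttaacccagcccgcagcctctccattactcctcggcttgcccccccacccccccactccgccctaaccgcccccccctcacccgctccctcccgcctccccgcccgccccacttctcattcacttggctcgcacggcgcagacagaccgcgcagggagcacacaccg
ALDOC: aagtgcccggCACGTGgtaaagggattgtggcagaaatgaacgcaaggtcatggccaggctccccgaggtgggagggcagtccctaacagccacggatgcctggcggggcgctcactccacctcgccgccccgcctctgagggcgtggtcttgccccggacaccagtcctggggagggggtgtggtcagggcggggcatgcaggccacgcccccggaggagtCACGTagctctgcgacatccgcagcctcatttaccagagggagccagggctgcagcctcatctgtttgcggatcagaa
BNIP3: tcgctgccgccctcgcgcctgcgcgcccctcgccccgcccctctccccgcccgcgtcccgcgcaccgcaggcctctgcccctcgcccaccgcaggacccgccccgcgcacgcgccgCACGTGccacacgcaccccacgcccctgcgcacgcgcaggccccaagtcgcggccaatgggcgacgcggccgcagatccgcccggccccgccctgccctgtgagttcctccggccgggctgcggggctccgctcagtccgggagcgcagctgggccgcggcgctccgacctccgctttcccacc
DDIT4: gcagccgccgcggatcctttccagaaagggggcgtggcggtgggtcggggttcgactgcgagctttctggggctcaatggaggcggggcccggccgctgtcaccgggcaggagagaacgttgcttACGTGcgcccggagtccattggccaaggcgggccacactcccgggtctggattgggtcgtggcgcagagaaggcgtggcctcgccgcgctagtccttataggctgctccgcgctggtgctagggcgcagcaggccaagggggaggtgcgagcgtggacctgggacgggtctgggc
Counted on each strand, the letters ACGTG matched 4 times in BHLHE40, 3 in ALDOC, 2 in BNIP3 and 1 in DDIT4. A run of CACGTG reads the same on both strands and so counts as 2 matches at 1 place. The letters ACGTG stood in 7518 of 35116 promoter windows (21.4%) and in 27 of the 46 windows of the HIF list (58.7%), a list of genes known to respond to HIF. The same letters were not in the other windows searched, those of VLDLR, TXNIP, STC2 and GDF15. The letters TGATGNAA, an ATF4-type element, were in none of the windows searched. They were in 3.6% of all windows and in 8 of the 35 windows of the ATF4 list (22.9%). A match is a string of letters and not a bound site.

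By the descriptions, the comparison called 700 of 17013 probes tested (4.11%) at an adjusted p under 0.05 in limma's moderated test with Benjamini-Hochberg adjustment over all probes. Of these, 371 were higher with ciclopirox (2.18%) and 329 lower (1.93%), and 155 changed at least 2-fold. Of the detected list members, 10 of 22 p53 targets were called higher, and 9 of 37 replication genes and 3 of 37 mitotic genes lower. With the value table the same test called 181 of 16556 probes (1.09%), 117 higher (0.707%) and 64 lower (0.387%), with 14 changed at least 2-fold. There the HIF targets were the list with the most members called, and the p53, replication and mitosis lists had 0 members called in either direction. Without normalization to equal distributions, when arrays were instead centred on their medians, the split of the value-table calls turned to 45 higher and 154 lower and the median of all probes moved to -0.12 on the log2 scale. By the descriptions that split was 378 higher and 251 lower.

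**Figure D2:**
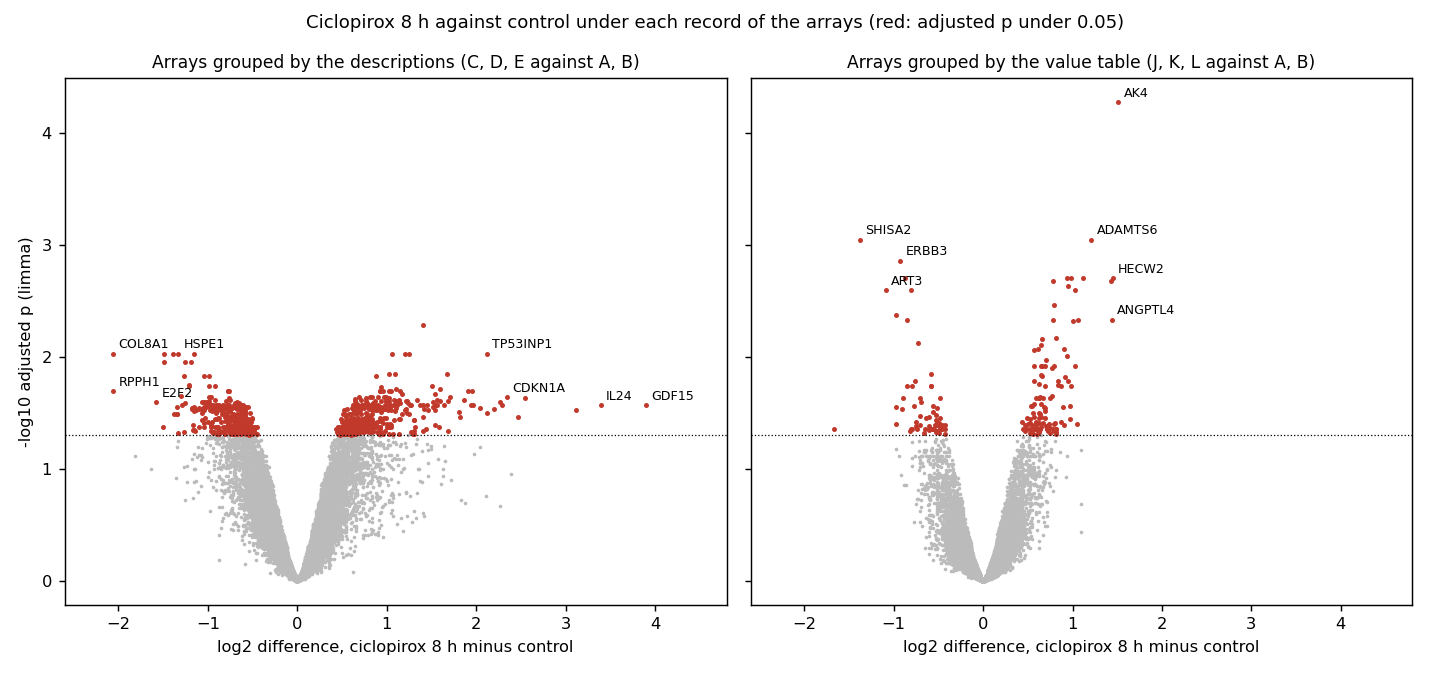
Log2 difference of ciclopirox at 8 h minus control (horizontal axis) against -log10 of limma's adjusted p (vertical axis) for every probe tested, by the descriptions (left, 17013 probes) and by the value table (right, 16556 probes). Red points passed an adjusted p of 0.05: 700 on the left, led in size by GDF15, and 181 on the right, where AK4 has the smallest adjusted p.

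The calls rested on single arrays to different degrees. By the descriptions, leaving out either control left 0 calls, leaving out C left 3, leaving out D left 458 and leaving out E raised the count to 1979. With arrays grouped by the value table, leaving out a control left 20 or 14 calls, and leaving out J, K or L left 75, 60 or 56. With 1 control array left, that array was assumed to vary like the other groups.

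Among p53 targets by the descriptions, 10 of 22 detected members were higher and 0 lower, against 2.18% of all probes called higher. The median log2 difference of the list was 1.0, where that of all probes tested was -0.0076. CDKN1A, the cyclin-dependent kinase inhibitor p21, had normalized log2 levels of 4.56 and 4.73 on the controls and of 7.28, 7.30 and 6.39 on C, D and E. It was not detected on either control and passed the filter on dim probes through C, D and E alone. Its fitted difference of 2.34 stands for a level at least 3.18-fold higher, and the count of 10 includes it. TP53INP1, a p53-induced regulator of cell death and autophagy, stood at 5.68 and 5.53 on the controls and at 7.98, 7.91 and 7.28 on C, D and E. The 3 arrays lay above both controls for both genes, as the rule for naming them required, with E the lowest of the 3. By the descriptions, 41.5% of all probes tested had no overlap between the groups.

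SESN1, a stress-induced inhibitor of mTORC1, stood at 6.79 and 6.81 on the controls and at 8.95, 8.87 and 8.43 on C, D and E, a difference of 1.95 ± 0.30 (SE, adjusted p = 0.0202, limma). ZMAT3, an RNA-binding p53 target, rose by 1.91 ± 0.30 (SE, adjusted p = 0.0202, limma). TP53INP1 rose by 2.12 ± 0.26 (SE, adjusted p = 0.00939, limma), and both detected probes of TP53INP1 and of ZMAT3 were called. The other 6 members called rose by between 0.88 and 1.71. Without C, D and E, 0, 8 and 14 members were called, where 3, 458 and 1979 of all probes were. Without either control the count fell. On the array that the descriptions call ciclopirox 24 h replicate 1, at F, the list median was 1.05, and on every position from G to L it lay between -0.09 and 0.02.

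Grouped by the value table, 0 of 20 detected p53 targets were called, against 1.09% of all probes, and the median difference was -0.01. PMAIP1, the BH3-only protein NOXA, had the smallest p, with levels of 6.75 and 6.91 on the controls and of 7.27, 7.06 and 7.67 on J, K and L. Its difference was 0.51 ± 0.17 (SE, adjusted p = 0.20, limma), which missed the threshold. CDKN1A was detected on 0 of these 5 arrays, so the filter left it out of the 20. Its levels on J, K and L of 4.59, 4.55 and 4.74 lay about where the controls lay. GDF15, TP53INP1, SESN1 and ZMAT3 had differences of 0.09, 0.00, -0.30 and -0.29.

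**Figure D3:**
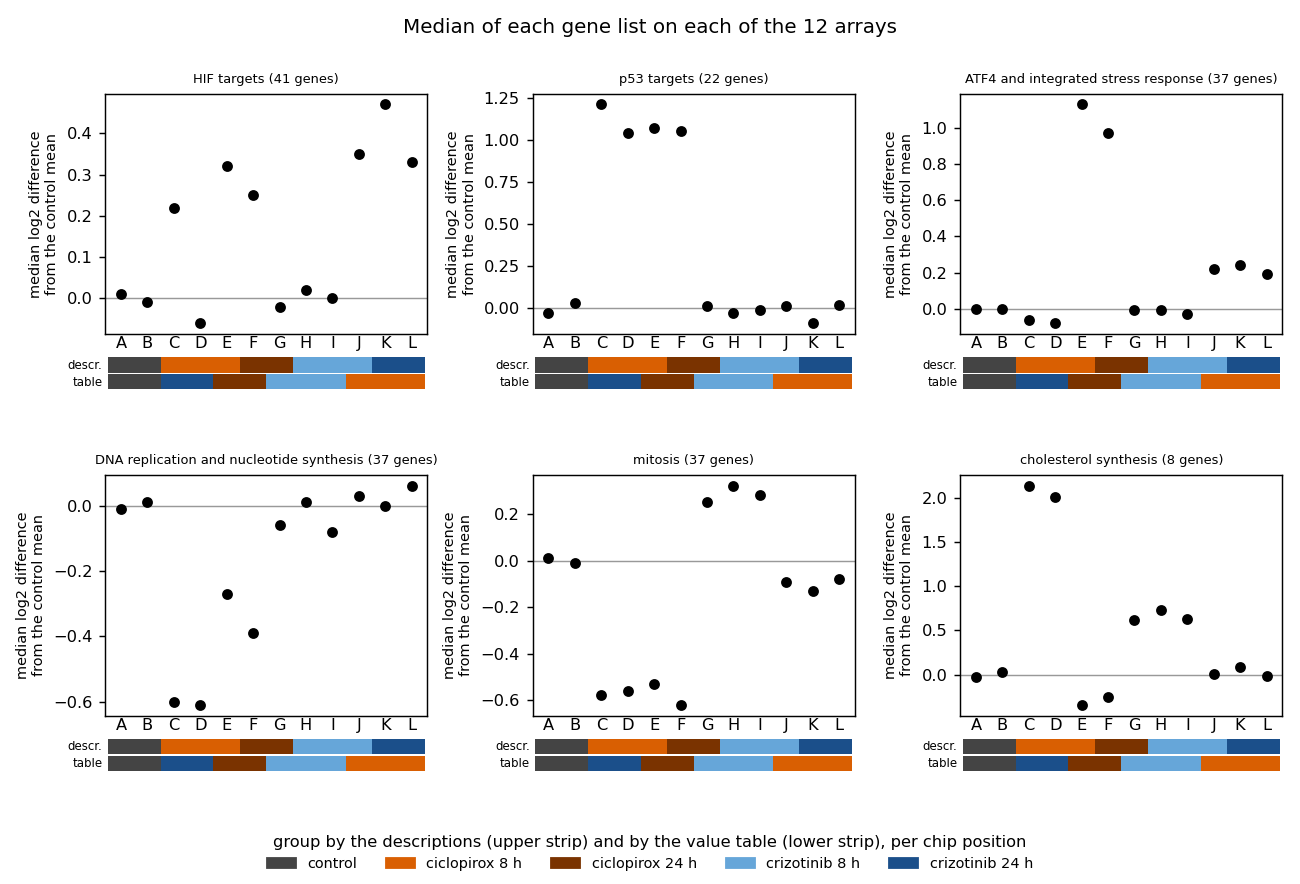
Median log2 difference from the control mean (vertical axis, a scale of its own in each panel) over the detected members of 6 gene lists on each array (horizontal axis, chip positions A to L). Coloured strips give each array's group by the descriptions (upper) and by the value table (lower). The p53 list is above 1.0 on C to F and near 0 elsewhere, the ATF4 list is high on E and F, and the cholesterol list is near 2 on C and D.

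Secreted factors led the rises of named genes by the descriptions. GDF15, a stress cytokine that both p53 and ATF4 induce, stood at 5.09 and 5.41 on the controls and at 8.93, 8.88 and 9.64 on C, D and E, a difference of 3.90 ± 0.71 (SE, adjusted p = 0.0269, limma). It was not detected on control A, so its value there is only a bound. IL24, a cytokine of the IL-10 family first found in differentiating melanoma cells, stood at 7.94 and 7.74 on the controls and at 11.98, 11.88 and 9.82 on C, D and E. Its difference was 3.39 ± 0.63 (SE, adjusted p = 0.0269, limma), with E far below C and D but, as the naming rule required, above both controls. ACTA2, a smooth muscle actin, stood at 8.07 and 7.97 on the controls and at 11.08, 10.80 and 9.84 on C, D and E.

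The remaining rises among the 10 largest followed the order of IL24 and ACTA2, with C and D above E. GDF15 was instead highest on E. PTPRR, a phosphatase of MAP kinases, stood at 7.21, 7.31 and 5.79 on C, D and E. It was detected on neither control, passed the filter through C, D and E alone and was at least 2.73-fold higher. SUGCT, a mitochondrial CoA transferase, rose by 2.12 ± 0.44 (SE, adjusted p = 0.0315, limma) and AHNAK2, a large scaffold protein, by 1.96 ± 0.37 (SE, adjusted p = 0.0272, limma). On J, K and L the differences of IL24, ACTA2, SUGCT and AHNAK2 were -0.33, -0.10, -0.12 and 0.15, with adjusted p between 0.217 and 0.802.

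Replication genes were lower by the descriptions. Of 37 detected members, 9 were lower and 0 higher, against 1.93% of all probes called lower, and the list median was -0.51. Without C, D and E, 0, 4 and 19 were called, where 3, 458 and 1979 of all probes were. Leaving out either control lowered the count. E2F2, a transcription factor that drives entry into S phase, stood at 9.75 and 9.86 on the controls and at 8.09, 8.19 and 8.39 on C, D and E, and fell by 1.58 ± 0.28 (SE, adjusted p = 0.0254, limma). ORC1, the largest subunit of the origin recognition complex, stood at 8.33 and 8.22 on the controls and at 6.82, 7.33 and 7.56 on C, D and E, a difference of -1.04 ± 0.20 (SE, adjusted p = 0.0278, limma). For both genes the groups did not overlap, which the naming rule required of E2F2 and which held for 41.5% of all probes.

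POLE2, a subunit of DNA polymerase epsilon, fell by 0.97 ± 0.18 (SE, adjusted p = 0.0272, limma). MCM10, which helps to activate the replicative helicase, stood at 9.08 and 9.02 on the controls and at 7.89, 7.97 and 8.69 on C, D and E, and its second detected probe missed the threshold at an adjusted p of 0.0516. RRM2, the iron-containing subunit of ribonucleotide reductase, split the 3 arrays. It stood at 10.22 and 10.04 on the controls, at 8.99 and 8.82 on C and D and at 10.42 on E, so the difference of -0.72 ± 0.36 (SE, adjusted p = 0.247, limma) missed the threshold. Without E it was -1.22 (adjusted p = 0.00131, limma).

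Mitotic genes had a median difference of -0.55 over 37 detected members, with 3 called lower and 0 higher, against 1.93% of all probes called lower. Without C, D and E, 0, 0 and 3 were called, where 3, 458 and 1979 of all probes were. The count also fell when either control was left out. NUF2, a kinetochore protein, stood at 7.88 and 8.03 on the controls and at 7.21, 7.10 and 7.26 on C, D and E, a difference of -0.76 ± 0.17 (SE, adjusted p = 0.0384, limma). CDC20, an activator of the anaphase-promoting complex, fell by 0.71 ± 0.18 (SE, adjusted p = 0.0493, limma) and FOXM1, a transcription factor of mitotic genes, by 0.71 ± 0.17 (SE, adjusted p = 0.0456, limma), though the other detected FOXM1 probe, at -0.56, was not called. In the value-table grouping the medians were 0.03 for replication and -0.09 for mitosis, with RRM2 at 10.20, 10.27 and 10.22 on J, K and L. The difference of RRM2 there was 0.10 ± 0.12 (SE, adjusted p = 0.77, limma).

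The largest falls of named genes by the descriptions were of other kinds. COL8A1, a chain of type VIII collagen, stood at 7.23 and 7.26 on the controls and at 5.31, 5.03 and 5.2 on C, D and E. It was detected on none of C, D and E and was at least 3.91-fold lower. COL8A1 was also called lower by the value table, with levels of 6.27, 6.48 and 6.44 on J, K and L and a difference of -0.85 ± 0.14 (SE, adjusted p = 0.0183, limma). RPPH1, the RNA of ribonuclease P, fell by 2.06 ± 0.32 (SE, adjusted p = 0.0202, limma) by the descriptions, and the small RNA gene SNORD3D by 1.49 ± 0.18 (SE, adjusted p = 0.00939, limma). From the control mean, RPPH1 differed by -2.49, -1.42 and -2.28 on C, D and E, and SNORD3D by -1.86, -1.45 and -1.17.

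HSPE1, the mitochondrial co-chaperone of HSP60, stood at 8.71 and 8.58 on the controls and at 7.26, 7.44 and 7.25 on C, D and E, and both of its detected probes were called lower. SNHG9, a small nucleolar RNA host gene, MIX23, a mitochondrial protein, and CBX2, a Polycomb subunit, had differences of -1.5, -1.49 and -1.38. On C, D and E, SNHG9 differed from the control mean by -1.7, -0.8 and -2.02, and MIX23 by -1.57, -1.42 and -1.47. CBX2 differed by -1.65, -0.95 and -1.55 and was not detected on C or E, so its value there is only a bound. GPRIN1, linked to neurite outgrowth, and CNIH2, an auxiliary subunit of AMPA receptors, had differences of -1.39 and -1.30. On C, D and E they were -1.58, -1.43 and -1.16 for GPRIN1, not detected on C, and -1.59, -1.35 and -0.97 for CNIH2. On J, K and L these falls other than that of COL8A1 were not called, with RPPH1 at 0.03, SNORD3D at -0.13 and HSPE1 at -0.37.

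HIF targets differed in count between the records. On J, K and L, 13 of 40 detected members were higher and 0 lower, against 0.707% of all probes called higher, with a list median of 0.39 beside -0.0045 for all probes. By the descriptions 4 of 41 were higher and 0 lower, against 2.18% of all probes called higher, with a list median of 0.17. With arrays centred on their medians the counts higher were 8 by the value table and 5 by the descriptions, again with 0 lower. Of all probes, 45 and 378 were called higher in those runs. The other 9 members called by the value table rose by between 0.47 and 0.84. The count there fell to 5, 8 and 4 without J, K and L, where 49, 46 and 41 of all probes were called higher. It also fell without either control. The per-array median over the 41 genes counted by the descriptions was 0.35, 0.47 and 0.33 on J, K and L, 0.32 and 0.25 on E and F, 0.22 on C and -0.06 on D.

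AK4, a mitochondrial adenylate kinase, had by the value table the smallest adjusted p of all probes. It stood at 8.28 and 8.23 on the controls and at 9.80, 9.70 and 9.81 on J, K and L, a difference of 1.51 ± 0.09 (SE, adjusted p = 5.36e-05, limma). All 4 detected probes of AK4 were called, with differences between 0.77 and 1.51. VLDLR, a lipoprotein receptor, stood at 6.19 and 6.07 on the controls and at 7.23, 6.89 and 7.22 on J, K and L, a difference of 0.98 ± 0.16 (SE, adjusted p = 0.0183, limma). In both genes the 3 arrays were close together and, as the naming rule required, above both controls. By the value table, 35.8% of all probes tested had no overlap between the groups.

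BNIP3, a mitophagy receptor, stood at 11.07 and 11.04 on the controls and at 12.12, 11.81 and 12.08 on J, K and L, a difference of 0.95 ± 0.15 (SE, adjusted p = 0.0165, limma). DDIT4, an inhibitor of mTORC1 also known as REDD1, stood at 10.62 and 10.61 on the controls and at 11.62, 11.51 and 11.57 on J, K and L, a difference of 0.95 ± 0.11 (SE, adjusted p = 0.00235, limma). BHLHE40, a transcriptional repressor, rose by 0.94 ± 0.09 (SE, adjusted p = 0.002, limma) there and by 1.41 ± 0.34 (SE, adjusted p = 0.0461, limma) by the descriptions. It was above the controls, at 8.81 and 8.74, under both records: 10.44, 10.5 and 9.63 on C, D and E, and 9.80, 9.66 and 9.68 on J, K and L.

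ANGPTL4, a secreted inhibitor of lipoprotein lipase, stood at 5.93 and 5.85 on the controls and at 7.43, 7.29 and 7.26 on J, K and L, a difference of 1.44 ± 0.18 (SE, adjusted p = 0.00468, limma). Its other detected probe, by which the list counts it, differed by 0.15 and was not called, so the probes disagree. VEGFA, the angiogenic growth factor, was not called under either record. It stood at 7.79, 8.02 and 7.75 on J, K and L against 7.24 and 7.22 on the controls, a difference of 0.62 ± 0.15 (SE, adjusted p = 0.0828, limma). By the descriptions it was at 6.48 and 6.82 on C and D, below both controls, and at 8.38 on E, above them.

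The HIF list members called by the descriptions besides BHLHE40 were TXNIP, ALDOC and NDRG1. TXNIP, which binds thioredoxin and restrains glucose uptake, rose by 1.81 ± 0.38 (SE, adjusted p = 0.0313, limma), and NDRG1, a metal-responsive growth suppressor, by 0.61 ± 0.13 (SE, adjusted p = 0.0364, limma). ALDOC, a glycolytic aldolase, stood at 9.58 and 9.66 on the controls, at 11.12, 11.10 and 10.55 on C, D and E and at 10.36, 10.38 and 10.37 on J, K and L. It was called higher under both records, by 1.30 ± 0.32 (SE, adjusted p = 0.0458, limma) and by 0.75 (adjusted p = 0.0231, limma). HIF1A itself was not called, with differences of -0.01 by the descriptions and 0.34 by the value table (adjusted p = 0.988 and 0.246, limma). Its other detected probe differed by -0.27 and -0.33 in the same order and was not called either.

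**Figure D4:**
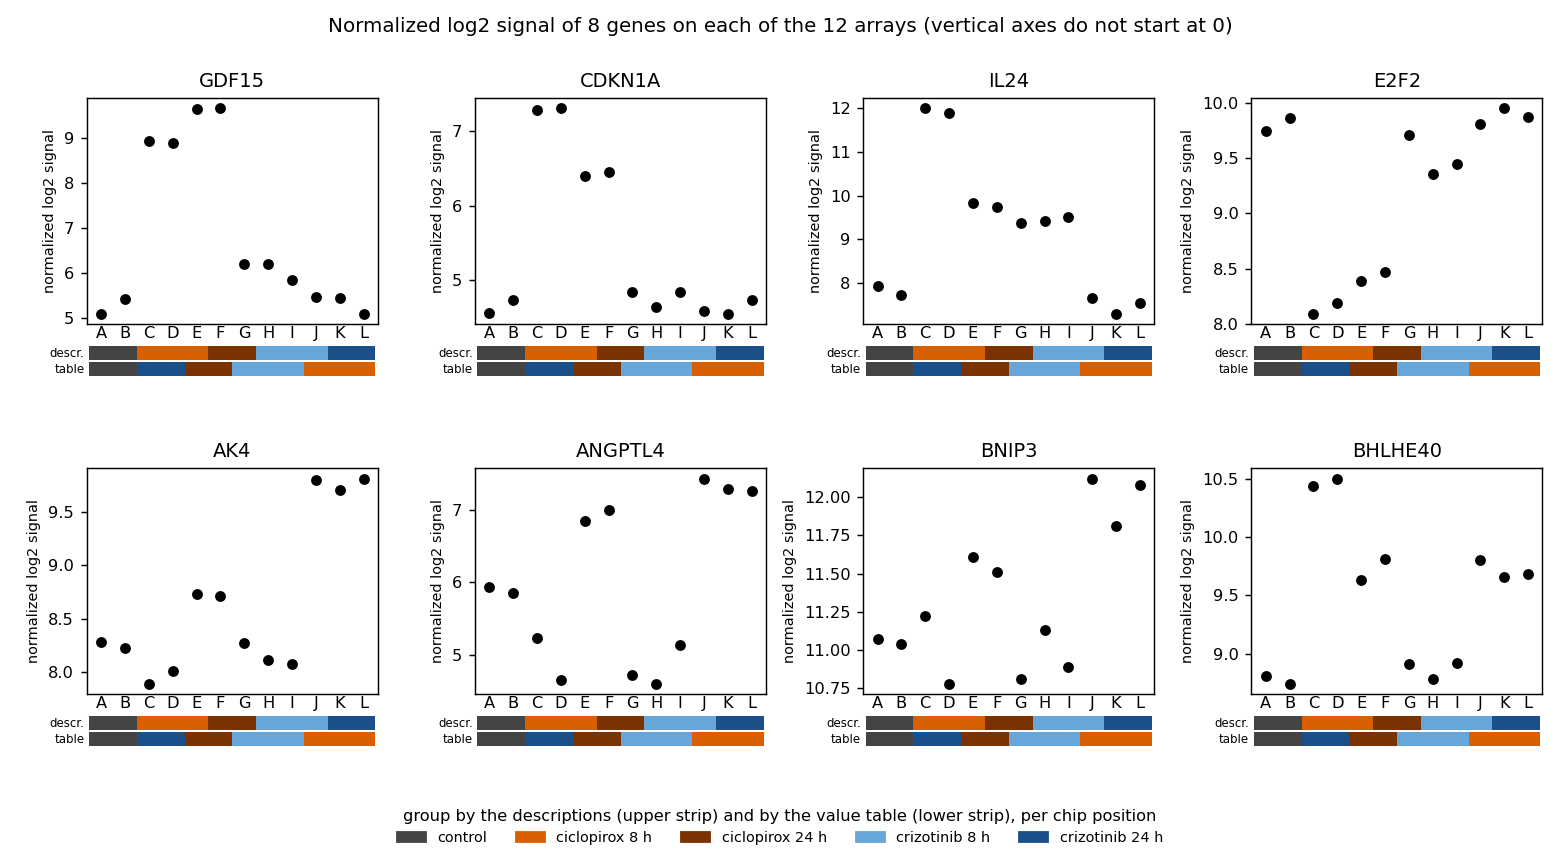
Normalized log2 signal (vertical axis, not starting at 0) of GDF15, CDKN1A, IL24, E2F2, AK4, ANGPTL4, BNIP3 and BHLHE40 on each array (horizontal axis, chip positions A to L), 1 point per array, with each array's group by the descriptions (upper strip) and by the value table (lower strip). GDF15 and CDKN1A are high on C to F, AK4 is highest on J to L at 9.70 to 9.81, and BHLHE40 is at or above 9.63 on C to F and on J to L, above both controls.

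Few genes of iron handling and of the iron enzymes were called, and with so few arrays a missed threshold does not show that a gene was unchanged. Of 18 detected iron-handling genes, 0 were called by the descriptions, where 4.11% of all probes were, and 1 by the value table, where 1.09% were. That gene was ALAS1, the first enzyme of haem synthesis, which stood at 6.5 on both controls and at 6.97, 7.21 and 7.19 on J, K and L, while its other detected probe, at a difference of 0.24, was not called. Of 20 iron and 2-oxoglutarate dependent oxygenases, 1 was called by the descriptions and 0 by the value table, against the same shares of all probes. It was the histone demethylase KDM5B, at 0.62 ± 0.15 (SE, adjusted p = 0.0455, limma). Of the 4 hypusination genes 0 were called. DOHH, deoxyhypusine hydroxylase, differed by -0.56 ± 0.21 by the descriptions and 0.03 ± 0.19 by the value table (SE, adjusted p = 0.141 and 0.964, limma). EIF5A, its substrate, differed by 0.06 and -0.01.

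ATF4 targets set array E apart by the descriptions. Of 37 detected members 1 was called, GDF15, against 4.11% of all probes called. The list median on the single arrays was -0.06 on C, -0.08 on D, 1.13 on E and 0.97 on F. DDIT3, the stress-induced factor CHOP, stood at 7.88 and 7.96 on the controls and at 9.11, 9.02 and 10.34 on C, D and E, a difference of 1.57 ± 0.48 (SE, adjusted p = 0.0811, limma). In the value-table grouping 4 of 36 members were higher, against 0.707% of all probes called higher. Without J, K and L 1, 2 and 1 were called, where 75, 60 and 56 of all probes were. The count also fell without either control. Of the 4 called with all arrays, DDIT4, VLDLR and STC2 are also on the HIF list, so the lists are not independent.

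STC2, a secreted glycoprotein, rose by 0.61 ± 0.12 (SE, adjusted p = 0.0444, limma), and TRIB3, a pseudokinase that acts on ATF4, by 0.52 ± 0.10 (SE, adjusted p = 0.0358, limma) by the value table. DDIT3 stood at 7.97, 7.97 and 8.00 on J, K and L, a difference of 0.06 (adjusted p = 0.807, limma). Among chaperone and unfolded protein genes the value table called XBP1, the splice-activated factor of that response, higher by 0.55 ± 0.11 (SE, adjusted p = 0.0468, limma), while its other detected probe, at 0.41, was not called. The descriptions called EDEM1, which sends misfolded proteins to degradation, higher and HYOU1, a chaperone of the endoplasmic reticulum, lower. Of 13 detected members of that list, 1 was higher and 2 lower, against 2.18% and 1.93% of all probes. The other detected probe of HYOU1 differed by -0.42 and was not called.

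Of 32 detected immediate early and growth factor feedback genes, 7 were higher and 1 lower by the value table, against 0.707% and 0.387% of all probes. Without J, K and L 3, 1 and 1 were called higher, where 49, 46 and 41 of all probes were. Leaving out either control also lowered that count. The list median was 0.15 by the value table and 0.13 by the descriptions. SPRY1, an inhibitor of receptor tyrosine kinase signalling, stood at 6.72 and 6.8 on the controls and at 7.48, 7.58 and 7.59 on J, K and L, a difference of 0.79 ± 0.09 (SE, adjusted p = 0.00343, limma). CCND1, cyclin D1, rose by 0.57 ± 0.09 (SE, adjusted p = 0.0165, limma) and EPHA2, an ephrin receptor, by 0.61 ± 0.12 (SE, adjusted p = 0.0444, limma). MYC stood at 9.35 and 9.40 on the controls and at 9.97, 9.93 and 10.10 on J, K and L, and both of its detected probes were called. With arrays centred on their medians 1 member of this list was higher and 1 lower, where 45 and 154 of all probes were. By the descriptions 2 of 32 were higher and 0 lower, against 2.18% of all probes called higher. They were the phosphatase genes DUSP4 and DUSP1 at 0.93 and 0.74, of which DUSP1 was also called by the value table at 0.57. MYC was not called by the descriptions (0.45 ± 0.19, SE, adjusted p = 0.174, limma).

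Cholesterol synthesis genes split the 3 arrays of the descriptions. The median of the 8 detected members was 2.13 on C, 2.01 on D and -0.34 on E. Of these 8, 1 was called, against 4.11% of all probes. SC5D, a late enzyme of the pathway, stood at 8.47 and 8.39 on the controls and at 10.37, 10.08 and 9.09 on C, D and E, a difference of 1.41 ± 0.30 (SE, adjusted p = 0.0342, limma). Without E, 7 members were called higher, where 1124 probes were called higher in all. On J, K and L, 0 of 9 were called, against 1.09% of all probes, and the list median was 0.08.

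Further single genes were called by the descriptions in small lists. SLC30A1, the zinc exporter of the plasma membrane, stood at 7.16 and 7.25 on the controls and at 8.42, 8.31 and 7.94 on C, D and E, and both of its detected probes were called higher. It was the 1 called of 6 detected metallothionein and zinc export genes, against 4.11% of all probes. That list had a median difference of -0.41, with 2 of the 6 above 0. BTG1, an antiproliferative factor, rose by 0.96 ± 0.22 (SE, adjusted p = 0.0387, limma). By the value table SLC30A1 and BTG1 differed by 0.35 and 0.06 and were not called. The mitochondrial respiratory chain list had 0 of 19 members called under either record, against 4.11% and 1.09% of all probes. Its median was 0.00 under both.

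Outside the lists, the value table called HECW2, a ubiquitin ligase, ADAMTS6, a secreted protease, and EVA1A, a regulator of autophagy, higher. HECW2 stood at 5.66 and 5.63 on the controls and at 7.01, 7.07 and 7.2 on J, K and L, a difference of 1.45 ± 0.15 (SE, adjusted p = 0.002, limma). ADAMTS6 rose by 1.21 ± 0.10 (SE, adjusted p = 0.0009, limma) and EVA1A by 1.06 ± 0.13 (SE, adjusted p = 0.00468, limma), with all 3 detected EVA1A probes called. TAGLN, an actin-binding protein, WWC1, a Hippo pathway protein, and KCNH1, a potassium channel, rose by 1.03, 0.98 and 1.03. By the descriptions KCNH1 was called higher as well, by 1.03 ± 0.14 (SE, adjusted p = 0.0142, limma). It lay between 0.88 and 1.31 above the control mean on every array from C to L, with either drug, and was not detected on control B. HECW2, ADAMTS6, EVA1A, TAGLN and WWC1 were not called by the descriptions, with differences of 0.96, 0.25, -0.21, -0.09 and 0.25. S1PR1, a receptor for sphingosine 1-phosphate, was detected on neither control and passed the filter through J, K and L alone. It was at least 1.79-fold higher, while its other detected probe differed by 0.94 and was not called.

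The largest called fall of a named gene by the value table was that of SHISA2, which restrains Wnt and fibroblast growth factor receptors in Xenopus. It stood at 7.50 and 7.27 on the controls and at 6.19, 5.88 and 5.95 on J, K and L, and fell by 1.38 ± 0.12 (SE, adjusted p = 0.0009, limma). ERBB3, a neuregulin receptor and a marker of the melanocyte lineage, stood at 9.66 and 9.58 on the controls and at 8.63, 8.68 and 8.75 on J, K and L, a difference of -0.93 ± 0.09 (SE, adjusted p = 0.00139, limma). The other 2 detected probes of ERBB3 differed by -0.29 and -0.10 and were not called. By the descriptions SHISA2, ERBB3 and DHRS3 were not called, with differences of -0.04, -0.15 and -0.39. MITF, the melanocyte master regulator, was not called under either record.

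DHRS3, which reduces retinaldehyde, fell by 0.97 ± 0.12 (SE, adjusted p = 0.00428, limma) and IFIT1, an interferon-induced antiviral protein, by 0.97 ± 0.17 (SE, adjusted p = 0.0279, limma). ART3, of the ADP-ribosyltransferase family, and REM2, a small GTPase, were detected on none of J, K and L and were at least 1.88-fold and 1.34-fold lower. SIPA1L2 and TRIM51 fell by 0.87 and 0.85, and the small heat shock protein HSPB8 by 0.89. IFIT1 and HSPB8 were not detected on K or L, so their values there are only bounds. HSPA1B, the stress-inducible HSP70, stood at 11.68 and 11.62 on the controls and at 11.28, 11.21 and 11.01 on J, K and L, and fell by 0.48 ± 0.10 (SE, adjusted p = 0.0444, limma).

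Against crizotinib at the same time, in the model of all 12 arrays, 811 of 17013 probes (4.77%) were called by the descriptions, 445 higher and 366 lower with ciclopirox, and 1325 with the replicate number as a block. Leaving out either control, which enters only the estimate of spread, left 86 calls. Leaving out C left 0, D 34 and E 2372, and leaving out any crizotinib array at 8 h left 0. With arrays centred on their medians the split was 1777 higher and 155 lower. CDKN1A, which passed the filter through C, D and E alone, was not detected on the crizotinib arrays and was at least 3.16-fold higher. GDF15 was higher than with crizotinib by 3.31 ± 0.63 (SE, adjusted p = 0.0306, limma), while E2F2 was lower by 1.31 ± 0.25 (SE, adjusted p = 0.0306, limma). TXNIP, BHLHE40 and ALDOC did not pass (adjusted p = 0.303, 0.075 and 0.0553, limma). By these descriptions the crizotinib arrays are H, I and J.

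By the value table, where the crizotinib arrays are G, H and I, 813 of 16556 probes (4.91%) were called, 383 higher and 430 lower. Leaving out J, K or L left 478, 493 or 424, and leaving out G, H or I left 396, 542 or 455. AK4 was higher than with crizotinib by 1.62 ± 0.08 (SE, adjusted p = 4.49e-06, limma). ANGPTL4 was not detected on G, H or I and was at least 4.05-fold higher (adjusted p = 1.83e-05, limma). VLDLR was higher by 1.43 ± 0.14 (SE, adjusted p = 0.000259, limma). VEGFA, which missed the threshold against control, was higher by 0.69 ± 0.14 (SE, adjusted p = 0.0156, limma). KCNH1, SHISA2, DHRS3, COL8A1 and MYC, each called against control, were among those that did not pass against crizotinib (adjusted p between 0.138 and 0.885, limma).

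Between the times of ciclopirox, limma called 0 of 17013 probes (0%) by the descriptions, with 2501 at an unadjusted p under 0.05 and a smallest adjusted p of 0.238. Without E it called 999 and without F 117. With the value table it called 3215 of 16556 (19.4%), 1634 higher at 24 h and 1581 lower, and 1571 without E and 2115 without F. With arrays centred on their medians the split by the value table was 2458 higher and 692 lower. By the value table the arrays at 24 h are E and F, which agree on GDF15 at 9.64 and 9.65, whereas by the descriptions they are F and G, at 9.65 and 6.19.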

How the data were processed

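RNA of 12 WM35 samples was measured on Illumina expression BeadChips. The authors deposited unnormalized probe intensity and a detection p-value per array, per the file headers, and a value table of 38223 probes that holds processed intensities on a linear scale, with normalization not stated, of which log2 was taken here. GenomeStudio is named per the submitters' processing notes, with its version not given in the sources used here. Columns of per-sample values left unused numbered 0.

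Intensities of 47230 probes were background-corrected with normexp on the detection p-values, offset by 16, quantile normalized and put on the log2 scale (neqc, limma 3.58.1 in R 4.3.3). Probes with a detection p under 0.01 on at least 2 of the 5 arrays compared were kept. All 12 arrays entered 1 linear model with a mean per group, and p-values were adjusted by Benjamini-Hochberg over the kept probes, with a threshold of 0.05. The scripts were tested on simulated data. A probe not detected on any array of a group has only a bound there: a fold written "at least" compares the mean of the brighter group with, per array of the dim group, whichever is higher of the probe's own value and the lowest detected signal.

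Groups came from sample titles, with arrays found through the descriptions or through the value table's columns. The alternatives tried were other background and scaling settings, other filters, only the groups compared, array weights, the value table's values, the replicate number as a block and leaving out arrays. As a check of pairing, deviations of arrays with the same replicate number were correlated. Ciclopirox and crizotinib at 8 h gave 0.18, 0.37 and 0.32 by the descriptions, which meets the rule for pairing, although the labels state no pairing, and -0.08, -0.13 and 0.025 by the value table. Control and ciclopirox did not pair.

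Of the probes tested by the descriptions, 12535 had 1 gene symbol, 1 had several and 4477 had none, and 12203, 1 and 4352 in the same order by the value table. Of 27004 annotated probes, 26970 had their symbol updated or found by gene ID. Named genes were the 10 largest called rises and falls without overlap between groups, up to 4 called members per list or, where none was called, up to 2 with the smallest p, and a few genes of iron, stress and lineage biology. In lists, a gene stands by its detected probe with the highest mean. The members, 25 gene lists and tests were chosen with earlier results of these data known.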

Additional observations from a re-analysis of the deposited data

Results flagged for a closer look

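With arrays grouped by the value table, the 17 genes below, from those described for that grouping, differed between 24 h and 8 h of ciclopirox in limma's test of that difference, with p-values adjusted over all probes. Other named genes passed too, and some differed by more, as GDF15 did by 4.31 (adjusted p = 1.27e-07), IL24 by 2.27 (adjusted p = 1.82e-06) and E2F2 by -1.44 (adjusted p = 2.13e-05). This is given as log2 differences, 24 h (E and F) minus 8 h (J, K and L), and stands beside 19.4% of all probes called in that contrast. By the descriptions 0 probes were called between the times.

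Among the 17, 9 were higher at 24 h. DDIT3 was higher by 2.29 (adjusted p = 1.29e-07), TRIB3 by 1.21 (adjusted p = 2.38e-05), STC2 by 0.98 (adjusted p = 0.000453) and XBP1 by 0.92 (adjusted p = 0.000453). VEGFA was higher by 0.73 (adjusted p = 0.00741), DDIT4 by 0.50 (adjusted p = 0.00773), EPHA2 by 0.50 (adjusted p = 0.0177) and HECW2 by 0.75 (adjusted p = 0.00706). SHISA2, below control at 8 h, differed by 0.59 (adjusted p = 0.00706).

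The other 8 were lower at 24 h than at 8 h. The difference was -1.77 for HSPA1B (adjusted p = 2.58e-06), -1.05 for AK4 (adjusted p = 4.51e-05), -0.97 for COL8A1 (adjusted p = 0.000939) and -0.90 for EVA1A (adjusted p = 0.00115). It was -0.63 for TRIM51 (adjusted p = 0.00223), -0.58 for SPRY1 (adjusted p = 0.00179), -0.44 for CCND1 (adjusted p = 0.00699) and -0.37 for WWC1 (adjusted p = 0.0256).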

How the results depend on the processing

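By the descriptions, the 700 probes called against control became 1070 with a normexp offset of 50, 344 with signals floored at 10, 147 with no filter, 121 with only the groups compared, 3585 with array weights, 97 with the value table's values, 3173 without 3 arrays that resembled another label in earlier work (E, G and J), and 181 with arrays grouped by the value table. Leaving out single arrays gave 0 to 1979. Against crizotinib the 811 became 1224 with the offset, 231 with the floor, 1932 with median centring, 0 with no filter, 522 with detection on 2 of 12 arrays, 269 with only the groups compared, 2454 with weights and 2509 without the 3 arrays, and 0 to 2372 without single arrays. Between times the 0 became 2769 with the value table's values, 1319 without the 3 arrays, 3215 by the value table's grouping and 0 to 999 without single arrays.

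By the value table, the 181 became 108 with the floor, 70 with no filter, 98 with detection on 2 of 12 arrays, 33 with only the groups compared, 530 with weights and 110 with its own values, and 14 to 168 without single arrays. Against crizotinib the 813 became 536 with median centring, 536 with no filter and 515 with only the groups compared, and 396 to 814 without single arrays. Between times the 3215 became 1971 with only the groups compared and 1571 to 3289 without single arrays.

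With the replicate block the counts by the descriptions were 1589 against control, where the numbers do not pair, 1325 against crizotinib and 70 between times. By the value table the block gave 79 against control.

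Differences changed sign with the value table's values in GDF15 (-0.03), IL24 (-0.40), ACTA2 (-0.15), SUGCT (-0.16), SESN1 (-0.35), ZMAT3 (-0.29), RPPH1 (0.07), E2F2 (0.05), MIX23 (0.07), MCM10 (0.09), CDC20 (0.16), DUSP4 (-0.08) and KDM5B (-0.32). With arrays grouped by the value table they changed sign in IL24 (-0.33), ACTA2 (-0.10), SUGCT (-0.12), TP53INP1 (0.00), SESN1 (-0.30), ZMAT3 (-0.29), RPPH1 (0.03), E2F2 (0.07), MIX23 (0.09), MCM10 (0.14), CDC20 (0.16), DUSP4 (-0.03) and KDM5B (-0.23). Both settings put other arrays under the sample names, and the cause of the other changes was not tested. Of the remaining values for single genes and lists, 1835 kept their side and direction, 502 lost the threshold, 205 moved, 26 were the sign changes above and 16 passed the threshold. Of 700 probes called by the descriptions, 11 were called in the same direction by the value table. The number of arrays limits precision.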
